A study of Mus musculus with 20 samples.

Results

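The cells described here are non-dividing basal keratinocytes of the epidermis between hair follicles. They number 1346 of the 30384 barcodes in the 2 matrices, 672 from the mutant library and 674 from the control library. A barcode was kept if it held 500 genes or more and if mitochondrial genes gave no more than 15% of its UMIs. Of these, a member had at least 50 UMIs of Krt14 and Krt5 per 10000, at least 3 UMIs of Ly6a and Fcgbp together, and fewer than 50 UMIs of Krt1 and Krt10 per 10000. It also had at most 1 UMI over Cd3e, Cd3d and Cd3g and at most 1 UMI over Mki67 and Top2a. Those measured values chose the cells, so they are given below as description only.

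The study profiled cells of mouse dorsal skin epidermis in anagen, the growth phase of the hair follicle, by droplet single-cell RNA sequencing. The mutant mice were Nfatc1-CreER;R26R;mTmG;Fgf5-/-, so homozygous for an Fgf5 mutation, and received tamoxifen for 3 days from postnatal day 23 or 24. The control mice were Nfatc1-CreER;R26R;mTmG, without the Fgf5 mutation, and received tamoxifen for 3 days from postnatal day 21 or 22. Both groups thus carried the CreER driver, whose Nfatc1 promoter is active in hair follicle stem cells, and the membrane reporter, and both received tamoxifen, on different days. The labels list 16 mutant samples and 4 control samples, each group is held in 1 pooled matrix, and no age at harvest is given. Each group is therefore 1 library, differences between them have no replicate check, and genotype, tamoxifen day and library cannot be told apart. All intervals are 95% intervals and cover counting error only.

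Basal keratinocytes form the lowest layer of the epidermis, where they attach to the basement membrane through integrins and hemidesmosomes and give rise to the cells that move up and keratinize. They carry the keratin pair Krt5 and Krt14, and they can also release cytokines and chemokines that act on skin leukocytes. Fgf5 is a secreted growth factor known for ending anagen, and mice without it grow long hair.

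The label was compared with its 5 markers. Krt14, a basal keratin, was at 13052 CPM (UMIs of a gene after the UMIs of all members of a library were scaled to a total of 1000000) in mutant cells and 10066 CPM in control cells. Its partner Krt5 was at 3963 CPM in mutant cells and 5347 CPM in control cells. Ly6a, which encodes the surface protein Sca-1, was at 347 CPM in mutant cells and 472 CPM in control cells, and Fcgbp was at 372 CPM and 358 CPM in the same order. Col17a1, a hemidesmosome collagen that the rule did not use, was found in 98.8% of mutant members and 97.0% of control members, against 4.97% of mutant and 6.57% of control T cells. Krt15, another basal keratin, was at 2335 CPM in mutant cells and 4657 CPM in control cells.

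The members held 5733507 UMIs in the mutant library and 6157870 in the control library, with medians of 5876.5 UMIs per mutant cell and 5666.5 per control cell. The median mitochondrial share of a member was 4.59% in mutant cells and 2.52% in control cells. The same share was 4.95% over all kept mutant cells and 3.22% over all kept control cells. The libraries shared 59 barcode sequences, and 0 sequences belonged to a member in both libraries. RNA of other cell types also differed between the libraries: at least 5 UMIs of inner root sheath genes (Krt25, Krt71, Krt27, Tchh) were present in 4.76% of mutant members (3.28% to 6.66%) and 16.02% of control members (13.3% to 19.0%). At least 20 haemoglobin UMIs were present in 0.595% of mutant members and 3.56% of control members. Melanocyte RNA went the other way, with at least 20 UMIs in 2.68% of mutant members (1.60% to 4.20%) and 1.48% of control members (0.714% to 2.71%), intervals that overlap. The T cells of each library also held these RNAs, with Krt71 in 25.8% of mutant and 65.7% of control T cells and Pmel, a melanocyte gene, in 32.3% of mutant and 19.4% of control T cells. The defining T cell genes Cd3e, Cd3d and Cd3g were at or near 0 in the members by the rule.

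Members were 5.87% of kept mutant cells (5.44% to 6.31%, Clopper-Pearson) and 4.76% of kept control cells (4.42% to 5.12%). Among keratinocytes that met every other clause of the rule, the Ly6a and Fcgbp clause kept 31.8% of 2110 mutant cells and 31.6% of 2135 control cells. The 2 shares of keratinocytes had overlapping intervals, and the 2 shares of all cells did not. With cells of exactly 3 Ly6a and Fcgbp UMIs, just inside the limit, Ccl20 was at 1076 CPM in 185 mutant cells and 13.4 CPM in 111 control cells. With 2 UMIs, just outside it, Ccl20 was at 1060 CPM in 231 mutant cells and 9.32 CPM in 106 control cells. At the limit on division, cells with 1 UMI of Mki67 and Top2a held Fos at 259.95 CPM in 68 mutant cells and 1553 CPM in 114 control cells. Cells with 2 such UMIs, outside the limit, held Fos at 191 CPM in 30 mutant cells and 1135 CPM in 34 control cells.

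Comparing mutant with control basal keratinocytes shows which genes differ between the libraries, in which genotype and tamoxifen day differ together. A gene is called higher or lower where the summed CPM differed at least 2-fold, the nearer end of the exact interval of the ratio passed 1.5-fold, and the higher library reached 100 CPM. Of 1587 genes at that level, 136 were higher in mutant cells (8.57%) and 139 were lower (8.76%), 17.3% in either direction. These shares are the background for every list below. Scaling with TMM factors added 0.29 to every log2 ratio and gave 247 higher and 75 lower genes, so a direction close to 0 depends on the scaling. The median log2 ratio was 0.03 over those 1587 genes and -0.21 over the 7764 genes with at least 10 CPM in either library. Lists below were chosen with earlier results of these data known, and their medians are over members of at least 10 CPM.

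The highest ratio among genes past the rule belonged to Ccl20, the chemokine that draws cells carrying its receptor Ccr6. Ccl20 (ENSMUSG00000026166, chromosome 1, 83116766 to 83119167, plus strand, GRCm38) was at 1229 CPM in mutant cells and 43.8 CPM in control cells, a log2 ratio of 4.81 (4.63 to 4.99). In control cells 1 cell held 65 of its 270 UMIs, and without the top cell of each library the ratio was 5.16. Other gates, filters and scalings gave 4.43 to 6.24 for Ccl20, a wider range than the counting interval. The 250 bases before its RefSeq start (GRCm38.p6, plus strand, chr1:83116516-83116765) are shown because they hold matches to 2 of 5 motifs searched. The same window of Cxcl2 (plus strand, chr5:90903649-90903898), a neutrophil chemokine that was lower in mutant cells, is shown beside it as the lower chemokine with the largest ratio. Capitals mark an NF-kB match in each and, in Ccl20, the TEAD letters CATTCC as well.
Ccl20: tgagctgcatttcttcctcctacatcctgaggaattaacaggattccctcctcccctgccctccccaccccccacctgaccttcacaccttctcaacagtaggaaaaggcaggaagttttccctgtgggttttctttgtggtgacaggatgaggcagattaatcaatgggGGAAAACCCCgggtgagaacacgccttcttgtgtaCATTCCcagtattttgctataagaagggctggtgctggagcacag
Cxcl2: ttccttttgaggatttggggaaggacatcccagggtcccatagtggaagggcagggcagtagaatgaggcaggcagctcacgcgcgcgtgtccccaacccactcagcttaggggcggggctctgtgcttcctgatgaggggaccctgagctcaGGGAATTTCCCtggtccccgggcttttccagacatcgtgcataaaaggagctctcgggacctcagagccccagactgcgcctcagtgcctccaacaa
The NF-kB match of Ccl20 lay 80 to 71 bases before the start and its TEAD letters 45 to 40 bases before it. Cxcl2 had 2 overlapping NF-kB matches, from 97 to 88 and from 96 to 87 bases before the RefSeq start, which is 28 bases from the GENCODE start. Motifs were searched on both strands in the 9 matched promoters of the 12 genes with the largest higher ratios and the 9 of the 12 with the largest lower ratios. NF-kB matches were in 1 promoter of the higher genes and 2 of the lower genes (Fos and Cxcl2), against 3.75% of 27025 promoters. The TEAD letters were in 1 higher (Ccl20) and 1 lower (Nr4a1) promoter, against 12.6% of all. The RefSeq start used for Nr4a1 was 12577 bases from its GENCODE start, so its match is not next to that start. For Socs3, which had no match, the distance was 681 bases. The AP-1 letters TGANTCA were in 1 higher promoter (Slc6a14) and 0 lower ones, against 6.84%, and the CRE letters TGACGTCA were in 1 higher promoter (Ch25h) and 0 lower ones, against 1.61%. The CArG motif was in 0 of either set, against 1.40%. These are matches of letters in a window, and the 5 motifs and both windows were chosen after values were seen.

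Among epidermal cytokines, 3 of the 5 members at 100 CPM were higher in mutant cells and 0 were lower, with a list median log2 ratio of 0.67. Tslp, a cytokine of keratinocytes that acts on dendritic cells and lymphocytes, was at 3609 CPM in mutant cells and 499 CPM in control cells, a log2 ratio of 2.85 (2.80 to 2.91). The highest member held 1157 Tslp UMIs in the mutant library and 641 in the control library. Without the top cell of each library the Tslp ratio was 3.11. Other gates, filters and scalings gave 2.52 to 3.63, a wider range than the counting interval. Il33, an alarmin kept in the nucleus, was at 339 CPM in mutant cells and 77.0 CPM in control cells (2.14, 1.99 to 2.29). Ptgs2, the inducible cyclooxygenase of prostaglandin synthesis that the list holds with the cytokines, was at 1249 CPM in mutant cells and 221 CPM in control cells (2.50, 2.42 to 2.59). T cells, which should lack Tslp, held it at 231 CPM in the mutant library and 13.9 CPM in the control library. These T cell levels stayed below those of the members in each library. The ratio of mutant over control Tslp was nevertheless larger in T cells than in the members, and the reason was not tested.

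Chemokines moved in both directions, with 2 higher and 3 lower of 6 at 100 CPM and a median of -0.72. Cxcl16, a membrane chemokine for Cxcr6-bearing lymphocytes, was at 466 CPM in mutant cells and 116 CPM in control cells (2.01, 1.89 to 2.13). Lower were Cxcl14, a chemokine made in resting epithelium, at 338 CPM in mutant cells and 821 CPM in control cells, and the interferon-induced Cxcl10 at 42.4 CPM and 102 CPM in the same order. With TMM factors Cxcl14 (-0.99) no longer passed the rule. Cxcl10 failed it in 11 of 15 alternatives, with ratios from -1.60 to -0.97 in those, TMM among them. Cxcl2 was at 30.7 CPM in mutant cells and 146 CPM in control cells (-2.25), and 1 control cell held 244 of its UMIs. With each cell thinned to 3000 UMIs, Cxcl2 was in 3.22% of mutant and 8.25% of control members, against 6.90% of mutant and 5.52% of control T cells, so its mutant share is at background. Cxcl2 failed the rule in 6 alternatives, with ratios from -2.13 to -1.23 in those, and in dividing basal cells it was at 89.0 CPM in mutant and 47.7 CPM in control cells (0.90). Ccl27a, a chemokine of basal keratinocytes, did not pass at 755 CPM in mutant cells and 852 CPM in control cells.

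Shares of cells with a UMI were compared after every cell was thinned to 3000 UMIs, which left 653 mutant and 630 control members. Ccl20 was found in 33.8% of thinned mutant members (30.2% to 37.6%) and 5.71% of control members (4.03% to 7.82%), and in 2.96% of mutant and 1.41% of control T cells treated alike. Without thinning it was in 41.1% of mutant and 11.6% of control members. The median T cell had 2075 UMIs in the mutant library and 2454 in the control library. Tslp was in 42.3% of mutant and 19.7% of control members, against 7.39% of mutant and 1.95% of control T cells. Both RNAs were unevenly spread: the 10% of cells with the most UMIs of the gene held 72.4% of Ccl20 UMIs in mutant cells and 95.9% in control cells, and 80.4% of Tslp UMIs in mutant cells and 93.1% in control cells. Tnfsf18, a ligand for an activating receptor of T cells, was named after its values were seen. It was at 82.5 CPM in mutant cells and 1.14 CPM in control cells, below the minimum level of the rule, and in 18.4% of thinned mutant members and 0.317% of control members, against 0 of T cells treated alike.

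**Figure D1:**
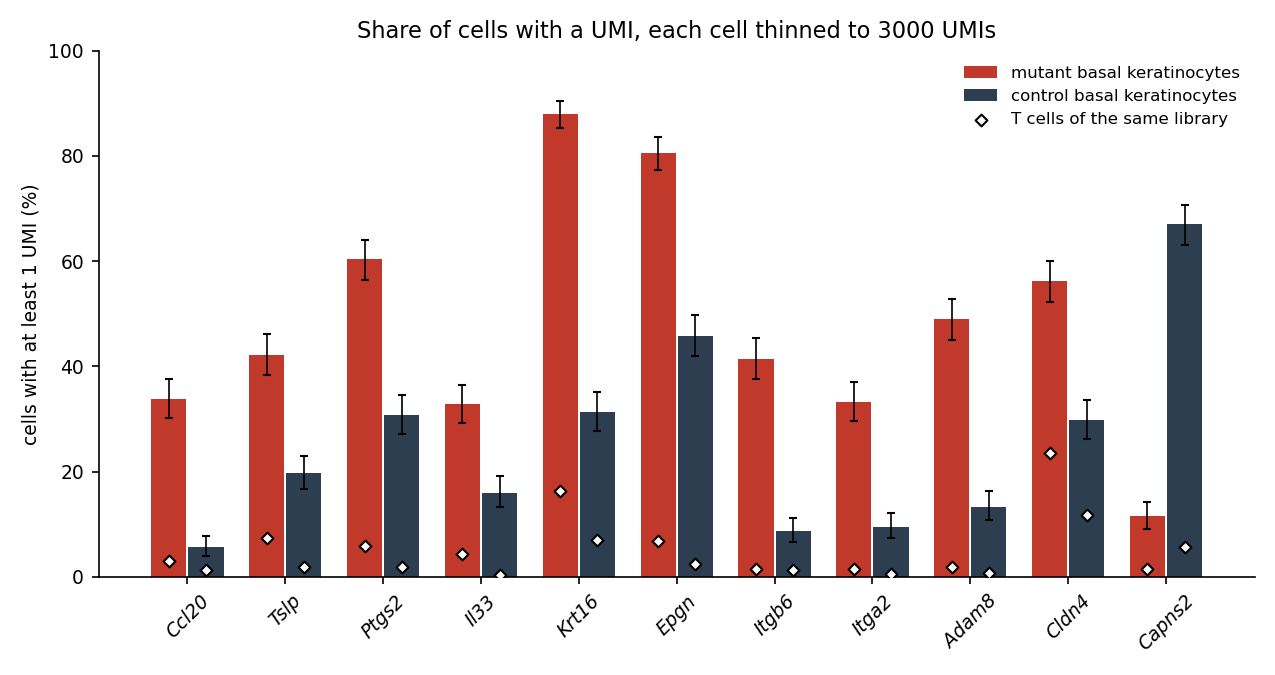
Percent of thinned non-dividing basal keratinocytes with at least 1 UMI (vertical axis) for 11 genes, mutant bars left of control bars with exact 95% intervals, and diamonds for T cells of the same library. Ccl20 reached 33.8% in mutant cells and 5.71% in control cells, while Capns2 was in 11.5% of mutant cells and 67.0% of control cells.

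**Figure D2:**
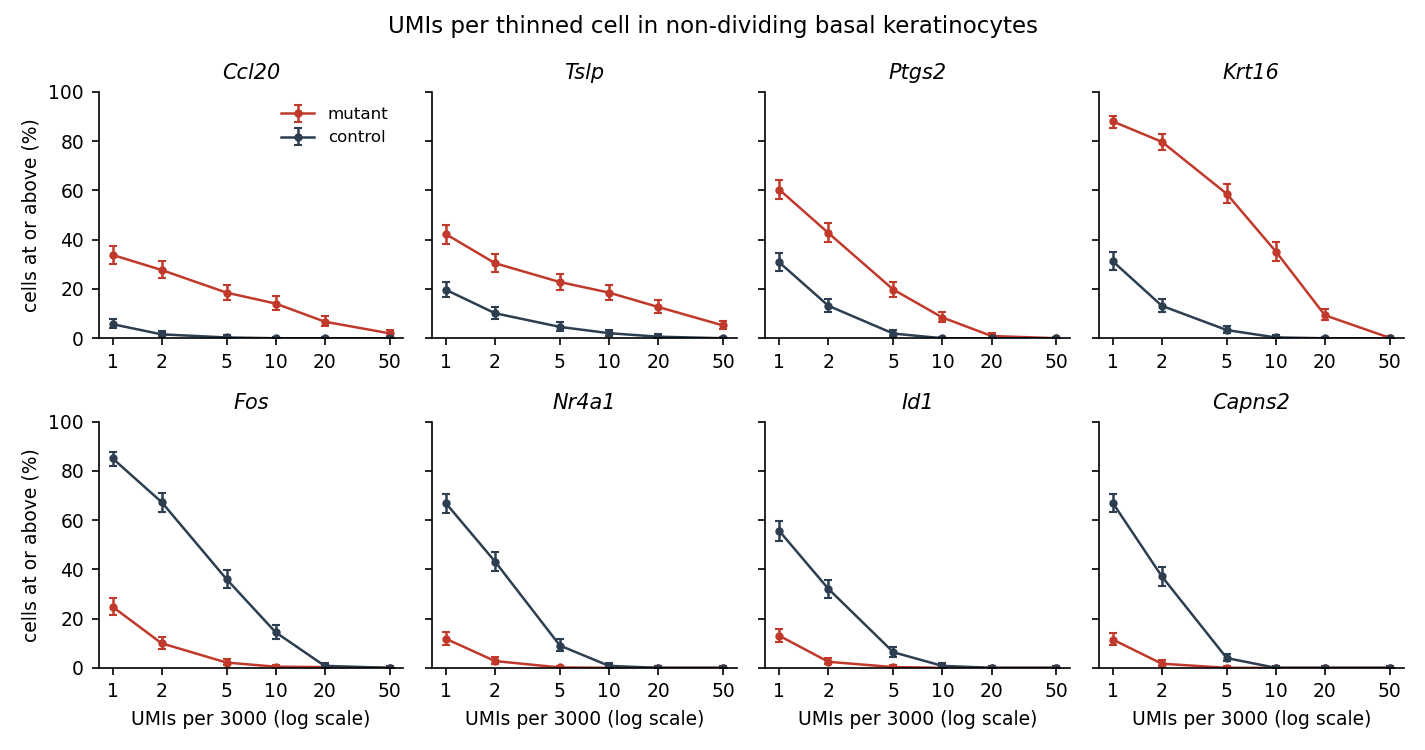
Percent of thinned cells (vertical axis) with at least the number of UMIs on the horizontal axis, for 8 genes, mutant and control members as separate lines. For Ccl20, 14.1% of mutant cells and 0 control cells held at least 10 UMIs.

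Wound and stress keratinocyte genes were the list with the most higher members for its size: 7 of 9 at 100 CPM were higher in mutant cells and 1 was lower, with a median of 0.71. Krt16, a keratin induced in wounded and hyperproliferative epidermis, was at 2674 CPM in mutant cells and 305 CPM in control cells (3.13, 3.06 to 3.20). It was found in 88.1% of thinned mutant members and 31.3% of control members, against 16.3% of mutant and 6.93% of control T cells. Krt17, a related stress keratin, was at 4908 CPM in mutant cells and 1938 CPM in control cells (1.34). Krt17 was in 97.4% of thinned mutant and 62.4% of control members, against 45.3% of mutant and 44.3% of control T cells. In control cells 1 cell held 866 Krt17 UMIs, and other gates, filters and scalings gave ratios from 1.18 to 2.42. Serpinb2, a plasminogen activator inhibitor, was at 4465 CPM in mutant cells and 1005 CPM in control cells (2.15). F3 (tissue factor), Adam8 (a cell surface protease) and Plaur (the urokinase receptor) were also higher, at log2 ratios of 2.21, 2.52 and 1.37. Krt6a, the partner keratin of Krt16 in wounds, was at 45.3 CPM in mutant cells and 48.4 CPM in control cells and did not pass. The list held Areg, the 1 lower member, at 52.1 CPM in mutant cells and 126 CPM in control cells, which did not pass with TMM factors (-0.98). T cells held Areg at 2257 CPM in the mutant library and 792 CPM in the control library, so the values in members were small beside them. The reads of Krt14, Krt16 and Krt17 are hard to separate because the genes are similar, and how shared reads were counted is not given in the sources used here.

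In the EGF receptor list 2 members were higher and 1, Areg, was lower of 5, with a median of 0.04. Epgn (epigen), a ligand of that receptor, was at 1739 CPM in mutant cells and 317 CPM in control cells (2.46, 2.39 to 2.53). Egfr itself was at 220 CPM in mutant cells and 65.4 CPM in control cells (1.75, 1.59 to 1.92). The ligand Hbegf, at 169 CPM in mutant cells and 333 CPM in control cells, did not pass. NF-kB pathway genes gave 2 higher and 0 lower of 9: Rela, a subunit of the factor, was at 226 CPM in mutant cells and 103 CPM in control cells, and Tnip1, an inhibitor of its signalling, was at 121 CPM and 36.7 CPM in the same order. Nfkb1 and Nfkbia, at log2 ratios of 0.74 and -0.65, did not pass.

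In the hemidesmosome and integrin list 4 of 9 were higher and 0 lower, with a median of 0.19. Itgb6, the beta subunit of an epithelial integrin that activates TGF-beta, was at 198 CPM in mutant cells and 38.6 CPM in control cells (2.36, 2.15 to 2.56). Itga2 and its partner Itgb1, the collagen receptor subunits, had log2 ratios of 1.94 and 1.24. Col17a1 was at 1444 CPM in mutant cells and 634 CPM in control cells (1.19), and fell short of the rule when cells were weighted equally (0.88) or thinned (0.94). The other hemidesmosome integrin genes Itga6 (437 CPM in mutant cells, 382 CPM in control cells) and Itgb4 (139 CPM in mutant cells, 116 CPM in control cells) did not pass. Junction genes gave 3 higher and 1 lower of 12: Cdh1 (E-cadherin), Jup (plakoglobin) and Cldn4 (a tight junction claudin) had log2 ratios of 1.17, 1.11 and 1.503, and the desmosomal cadherin Dsg1a had -1.37.

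Immediate early genes, transcription factors and signalling regulators whose RNA appears within minutes of a stimulus, were the list with the most lower members. Of 23 at 100 CPM, 12 were lower and 0 higher, against the 8.76% of all genes, with a median of -1.02. Fos (ENSMUSG00000021250, chromosome 12, 85473890 to 85477273, plus strand) was at 214 CPM in mutant cells and 1589 CPM in control cells, a log2 ratio of -2.89 (-2.98 to -2.81). Nr4a1, an orphan nuclear receptor, was at 52.8 CPM in mutant cells and 548 CPM in control cells (-3.37), and Egr1, a zinc finger factor, at 203 CPM and 897 CPM in the same order (-2.14). Atf3, a stress-induced factor, was at 568 CPM in mutant cells and 2268 CPM in control cells (-2.00). Socs3, a feedback inhibitor of cytokine receptors, was at 35.6 CPM in mutant cells and 339 CPM in control cells (-3.25). The AP-1 subunits Junb, Fosb and Jun had ratios of -1.18, -1.03 and -1.01, just past the rule, and no longer passed with TMM factors (-0.88, -0.73, -0.71). Jun failed in 10 of 15 alternatives. With TMM factors 3 members, Btg1, Egr3 and Fosl1, were higher, and 9 were lower. In cells matched at 2% to 5% mitochondrial UMIs 8 were lower and 2 higher, with Jun at -0.52, so these counts move with the mitochondrial share; its part in the result was not tested. Fos was in 24.8% of thinned mutant members and 85.1% of control members, while T cells, which express it, gave 72.4% in the mutant library and 90.3% in the control library.

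Transcription factors of basal keratinocytes gave 1 higher and 7 lower of 15, with a median of -0.73. The lower ones included Id1 (-3.05), Hopx (-2.21), a homeodomain protein of epidermal and follicle cells, Hes1 (-1.96), a Notch target, and Myc (-1.70), a growth regulator. Klf4 (-1.25), a factor of epidermal differentiation, and Nfib (-1.12) were lower as well. With TMM factors Klf4 (-0.95), Nfib (-0.82) and Id3 (-0.74) did not pass. Id3 failed in 10 of 15 alternatives. Trp63, which specifies basal keratinocytes, was at 136 CPM in mutant cells and 217 CPM in control cells and did not pass. The 3 lower members of the BMP and TGF-beta list were Id1, Id2 and Id3, inhibitors of differentiation that are induced by BMP signals. Id1 was at 65.2 CPM in mutant cells and 541 CPM in control cells (-3.05, -3.21 to -2.90), and Id2 at 112 CPM and 357 CPM in the same order. In T cells Id1 (-1.40) and Id3 (-1.20) were also lower past the rule, so their lower levels were not particular to keratinocytes. Fst, the activin and BMP antagonist follistatin, was higher at 355 CPM in mutant cells and 161 CPM in control cells (1.14). It did not pass in cells with no UMI of other types (0.42), on Ly6a alone (0.78) or at matched mitochondrial share (0.87), and reached 2.06 with Krt14 and Krt5 at 150 or more per 10000. With all Wnt genes at 10 CPM, 0 of 18 had a ratio above 0, the median was -1.03, and the ligand Wnt4 (90.0 CPM in mutant cells, 231 CPM in control cells) and the antagonist Sfrp1 (26.2 CPM in mutant cells, 103 CPM in control cells) were the 2 lower of 4. Sfrp1 failed the rule in 11 of 15 alternatives. With TMM factors Wnt4 alone of these passed, and the Wnt genes with ratios closest to 0 turn above 0 by the shift of 0.29. No Notch gene but Hes1 passed, 1 lower of 2.

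Txnip, an inhibitor of thioredoxin that responds to glucose, had the lowest ratio among genes past the rule. It was at 13.1 CPM in mutant cells and 199 CPM in control cells (-3.92, -4.28 to -3.59), and it was in 3.37% of thinned mutant members and 41.3% of control members. It was in 14.8% of mutant and 30.7% of control T cells. Capns2, a calpain subunit, was at 33.0 CPM in mutant cells and 377 CPM in control cells (-3.52). Gadd45a, a growth arrest gene, was higher at 369 CPM in mutant cells and 120 CPM in control cells, while its relative Gadd45g was lower at 69.4 CPM and 386 CPM in the same order. Reads of Txnip, Tslp, Ch25h and Capns2, which overlap another annotated gene, may be split with or taken from that gene, since strand use in counting is not given in the sources used here. Fabp5, a fatty acid binding protein of keratinocytes, was at 215 CPM in mutant cells and 860 CPM in control cells (-2.00). Elovl6, a fatty acid elongase, was at 22.3 CPM in mutant cells and 116 CPM in control cells (-2.38), but 1 control cell held 488 of its UMIs, and without the top cell of each library the ratio was -0.79.

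Fgf5 itself had 8 UMIs over the mutant members and 12 over the control members, too few for a ratio in these cells, so the members do not check the genotype. Of 4 FGF receptor and co-receptor genes at 100 CPM, 0 passed in either direction, and Fgfr2, the main epidermal receptor, was at 80.1 CPM in mutant cells and 136 CPM in control cells. Fgfr3 was at 29.1 CPM in mutant cells and 80.2 CPM in control cells, below the minimum level. Summed over this list, levels were 2400 CPM in mutant cells and 1931 CPM in control cells, and 5 of 12 genes at 10 CPM had a ratio above 0. The ERK feedback list had 0 of 2 past the rule. Below the minimum level, Spry1 and Dusp6 were at 12.03 CPM and 27.03 CPM in mutant cells and at 57.5 CPM and 46.6 CPM in control cells. The sum of the ERK feedback list was 1125 CPM in mutant cells and 976 CPM in control cells, with 2 of 8 genes at 10 CPM above 0. Cytokine receptors were 2 lower of 3: Tnfrsf1a, a TNF receptor, at 49.7 CPM in mutant cells and 132 CPM in control cells, and Ifngr1, an interferon-gamma receptor chain, at 46.4 CPM and 118 CPM in the same order. Among interferon genes only Irf1 passed, 1 lower of 5, at 32.8 CPM in mutant cells and 152 CPM in control cells. Il20rb, a receptor chain of epidermal cytokines, was at 5.58 CPM in mutant cells and 47.4 CPM in control cells, below the minimum level.

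**Figure D3:**
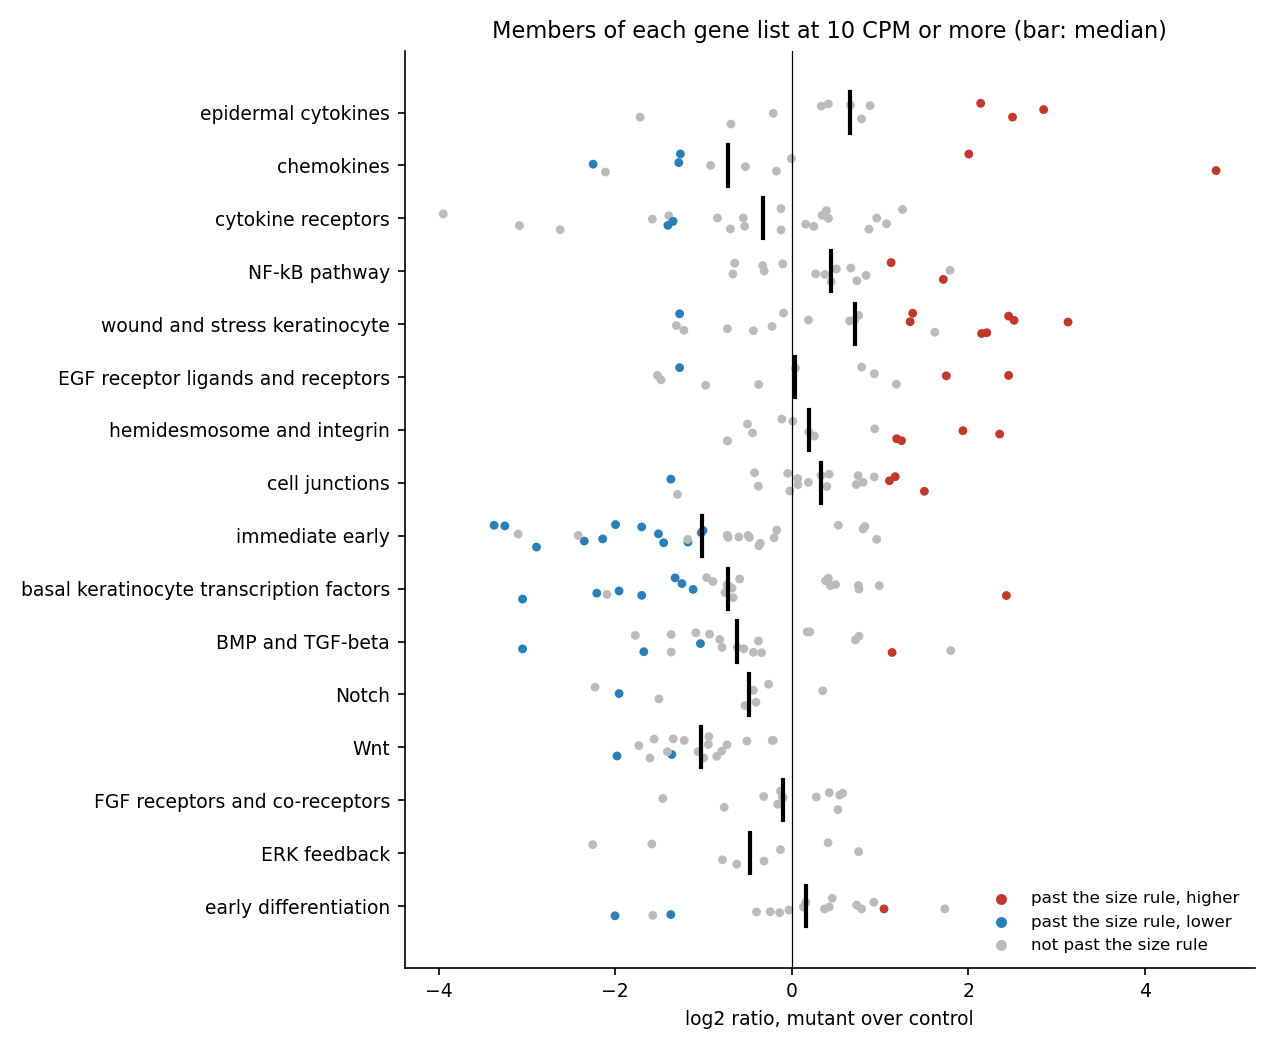
Log2 ratio of mutant over control CPM (horizontal axis) for the members of 16 gene lists with at least 10 CPM in either library, 1 point per gene, with the median of each list. The wound and stress list has a median of 0.71 and the immediate early list one of -1.02.

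Among other genes past the rule, Ch25h, the enzyme that makes 25-hydroxycholesterol, was at 328 CPM in mutant cells and 46.8 CPM in control cells (2.81, 2.63 to 2.99), and the cholesterol synthesis gene Hmgcs1 was lower at 60.9 CPM and 182 CPM in the same order. Slc6a14, an amino acid transporter, was at 151 CPM in mutant cells and 18.2 CPM in control cells (3.06), and the water channel Aqp3 at 164 CPM and 74.2 CPM (1.15). Tead1, a factor that binds DNA with Yap, was at 163 CPM in mutant cells and 35.1 CPM in control cells (2.21). Its list of YAP and TEAD genes gave 1 higher and 1 lower of 3 at 100 CPM, with a median of 0.27. The lower one was Cyr61, at 69.4 CPM in mutant cells and 147 CPM in control cells (-1.09), which did not pass with TMM factors (-0.79). Plet1, an epithelial surface protein of the upper follicle, was higher at 1465 CPM in mutant cells and 381 CPM in control cells (1.94). In its list of upper follicle markers 3 members were higher (Plet1, Krt17 at 1.34 and Fst at 1.14) and 1 was lower (Krt79 at -1.29) of 5, with a median of -0.54 over the 8 at 10 CPM. The direction of Krt79 depended on the gate, and Cst6 (-0.54) and Defb6 (-0.57) did not pass. In the division lists, which the rule had already thinned of dividing cells, 0 S phase genes reached 100 CPM and the 3 of 3 lower G2 and M genes were Cks2 (-1.94), Hmgb2 (-1.45) and Tubb4b (-1.27). Heat shock genes gave 0 higher and 1 lower (Dnajb1, -1.19) of 11, and glycolysis genes 0 higher and 1 lower (Eno1, -1.10) of 11. With TMM factors Dnajb1, Eno1 and Tubb4b did not pass.

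The cytokine RNAs overlapped in the same cells to different degrees. Among thinned mutant members with a Tslp UMI, 83.3% (78.4% to 87.5%) also had Ptgs2, against 43.5% (38.4% to 48.7%) of those without, and Il33 was in 48.2% against 21.5%. Cells with Ccl20 had Epgn in 92.3% and Tslp in 53.8%, against 74.5% and 36.3% of cells without Ccl20, while Il33 was in 32.1% against 33.1%. In control members Ptgs2 was in 55.6% of the 124 cells with Tslp and in 24.7% of those without. These shares describe the cells of each library and were not tested.

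The tomato transcript had 0 UMIs in the members and in the T cells of both libraries, so its absence says nothing about the members. The eGFP transcript was in 28.3% of thinned mutant and 22.7% of control members, at or below the 45.8% of mutant and 27.3% of control T cells. Its UMIs were concentrated in few members: the 10% of cells with the most held 81.4% of them in mutant cells and 90.1% in control cells, and the highest member had 99 UMIs in the mutant library and 295 in the control library. Whether those members were recombined was not tested.

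Other keratinocytes of the same libraries were compared with the members gene by gene. Dividing basal cells, defined by at least 2 UMIs of Mki67 and Top2a, were 92 mutant and 186 control cells. They shared 97 of 121 higher and 88 of 120 lower genes with the members, against 7.72% of their 1671 genes higher and 7.78% lower in all (15.5% in either direction). Suprabasal cells (304 mutant, 192 control) shared 63 of 100 and 76 of 111, against 11.7% higher and 10.8% lower (22.5% in either direction). Cells with the basal keratins but no Ly6a or Fcgbp UMI (899 mutant, 1229 control) shared 30 of 78 and 15 of 101, against 3.89% higher and 1.95% lower (5.84%). T cells shared 14 of 56 and 20 of 93, against 5.67% higher and 4.09% lower (9.75%). Every group is compared over the same 2 libraries, so these shares are descriptions. Ccl20 had a log2 ratio of 4.51 in dividing basal cells, 2.97 in suprabasal cells, 3.14 in cells without Ly6a or Fcgbp and 1.68 in T cells, each below the 4.81 of the members. The difference between members and suprabasal cells was 1.84 (1.49 to 2.18), while that between members and dividing basal cells was only 0.30 (0.03 to 0.57). The ratio of dividing basal cells lay within the 4.43 to 6.24 that other gates, filters and scalings gave for Ccl20 in the members. Tslp had a ratio of 4.43 in cells without Ly6a or Fcgbp, where it was at 287 CPM in mutant and 13.3 CPM in control cells, close to the 231 CPM and 13.9 CPM of mutant and control T cells. Fos had a ratio of -3.85 in suprabasal cells, -2.37 in dividing basal cells and -0.99 in cells without Ly6a or Fcgbp, where the members minus those cells gave -1.90 (-1.99 to -1.81). Id1 and Id3 were lower past the rule in all of these groups. Id1 was at -2.35 in dividing basal cells, -3.80 in suprabasal cells and -1.42 in cells without Ly6a or Fcgbp. Id3 was at -1.04 in members and, in the same order, at -1.25, -2.27 and -1.08. Col17a1, higher in members, was level in suprabasal cells at 164 CPM in mutant and 192 CPM in control cells. Cells with a Ly6a and Fcgbp UMI count of 0 were chosen after values were seen.

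**Figure D4:**
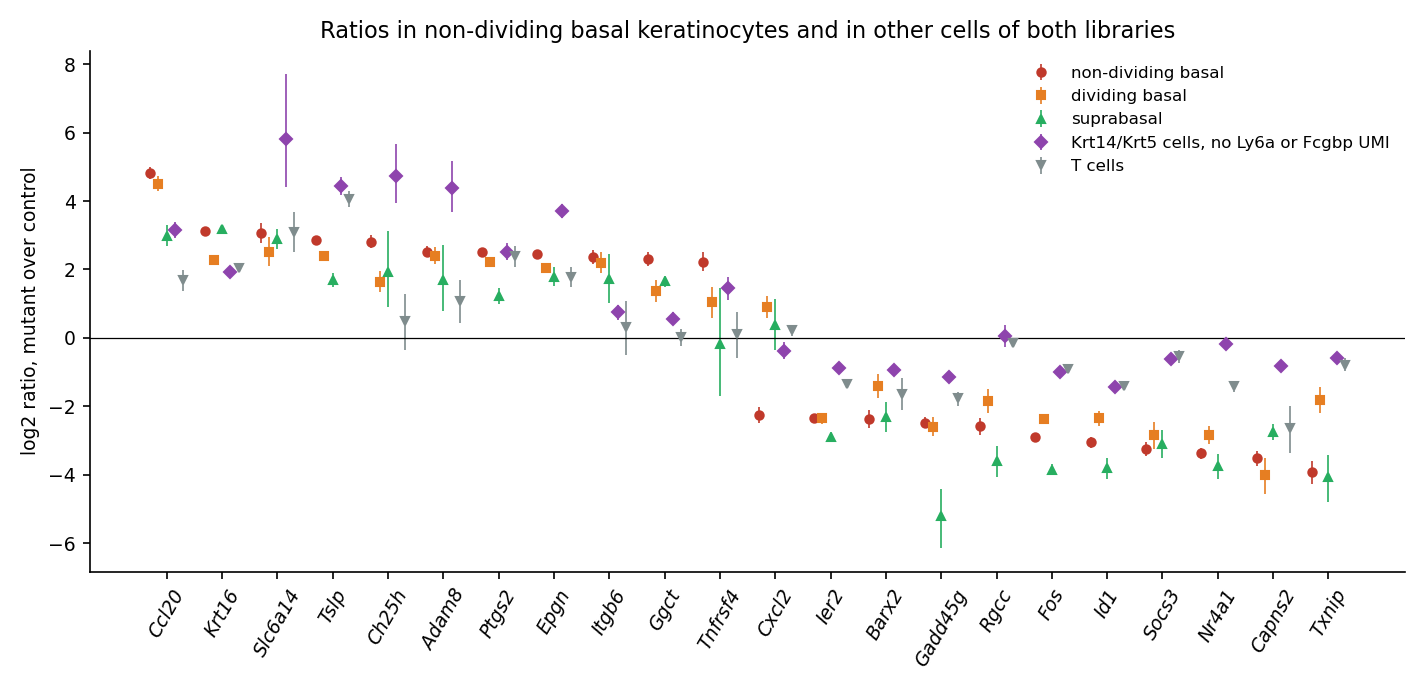
Log2 ratio of mutant over control CPM (vertical axis) for 22 genes in 5 groups of cells, each with its own symbol and its 95% counting interval. Ccl20 is at 4.81 in non-dividing basal keratinocytes and 1.68 in T cells, and Fos is at -2.89 in members, -3.85 in suprabasal cells and -0.99 in cells without Ly6a or Fcgbp.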

How the data were processed

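Single-cell 3′ RNA libraries of mouse dorsal skin were analysed from the deposited matrices of raw UMI counts per gene and barcode. Cell Ranger 3.0.2 wrote the matrices, as their headers state (per the file headers). The submitters' processing notes list GRCm38 (mm10) as build, and among tools Seurat, in versions 3.0.0 and 3.1.0. The authors pooled all samples of a group in 1 matrix, so n is 1 library per group and no test was run.

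Members were chosen by the rule given in the report. Their UMI counts were summed per library, scaled to CPM and compared as log2 mutant over control with an exact conditional Poisson interval (Python 3.11.15, scipy 1.17.1). A gene passed at a 2-fold difference, a nearer bound past 1.5-fold and 100 CPM in the higher library. Genes below 10% of the highest level of another cell type were marked as possible free RNA. Named genes were the 12 with the largest ratios each way among those past the rule, the most abundant and most variable genes, and up to 4 per list, except a few that are not reported here. The members and the gene lists were chosen with earlier results of these data known. So were the comparison cells without Ly6a or Fcgbp, the genes of the detection shares, and the limits on RNA of other types.

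Scaling by TMM (edgeR 4.0.16) and by DESeq2 1.42.0 size factors, other gates and filters, thinned cells and doublet removal (Scrublet in scanpy 1.11.5, its expected rate set after trying others) were alternatives. The statistics were tested on simulated Poisson counts, which lack the cell to cell spread of these data. That test therefore does not show how well the intervals or the rule hold here. Gene positions are from GENCODE and promoters from RefSeq GRCm38.p6.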

Additional observations from a re-analysis of the deposited data

Results flagged for a closer look

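Of the genes past the size rule in the basal keratinocytes, 7 passed it in the opposite direction in suprabasal cells and 2 in T cells. With 1 library per group none of these differences was tested. Fabp5 had a log2 ratio of -2.00 in the members and 1.05 in suprabasal cells, where it was at 2745 CPM in mutant and 1327 CPM in control cells. In T cells Fabp5 was lower, as in the members, at 698 CPM in mutant and 1772 CPM in control cells (-1.34). Those T cell levels were above the levels of the members in each library. Hopx was at -2.21 in the members, 1.14 in suprabasal cells and 1.45 in T cells. Elovl6 was at -2.38 in the members and 1.09 in suprabasal cells, and its value in the members rests on 1 control cell. Areg was at -1.27 in the members and 1.51 in T cells. The haemoglobin genes Hbb-bs, Hba-a1 and Hba-a2 were at -2.10, -2.04 and -1.97 in the members and at 2.11, 1.73 and 2.02 in suprabasal cells. Dct, a melanocyte gene, was at 1.10 in the members and -2.35 in suprabasal cells. The melanocyte and haemoglobin genes are transcripts of other cells, and how they reached the keratinocyte barcodes was not tested.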

How the results depend on the processing

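No paired analysis was possible because all samples of a group were pooled in 1 matrix with no replicate numbers. The 136 higher and 139 lower genes became 247 and 75 with TMM factors, 242 and 75 with DESeq2 factors, 210 and 306 at a minimum of 50 CPM, 80 and 65 at 200 CPM, 461 and 1762 with no minimum, and 46 and 51 at 3-fold. The member share was 7.12% of mutant and 5.53% of control cells with a stricter cell filter, 4.40% and 4.13% with Ly6a and Fcgbp as a rate, 4.22% and 3.42% on Fcgbp alone, 5.21% and 4.01% on Ly6a alone, 4.06% and 2.80% with Krt14 and Krt5 at 150, and 5.02% and 3.45% without cells holding RNA of other types. Of keratinocytes it was 31.8% and 31.6%. Over 15 settings, 58 of the 92 named genes past the rule passed in every one. Those that failed most often were Cxcl10 and Sfrp1 (11 settings each), Jun and Id3 (10 each), Elovl6 (9), Mgst1 (8), and Areg, Krt79, Dct and Scd1 (7 each), followed by Cxcl2, Eno1, Plaur and Lypd3 (6 each). Directions turned for Dct (-1.27 at matched mitochondrial share), Krt79 (0.91 with Krt14 and Krt5 at 150, 0.40 without upper follicle cells, 0.24 without RNA of other types) and Scd1 (1.10 on Fcgbp alone, 0.18 with no UMI of other types), and the cause was not tested. Removing cells with RNA of other types and matching the mitochondrial share were chosen after seeing the data, and gave 143 higher and 152 lower genes, and 170 and 151. Dct has no value with no UMI of other types, by construction.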

Other observations

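Genes of the actin cytoskeleton, taken as whole families by symbol after some of their values were seen, were higher in mutant basal keratinocytes where they passed the rule. Both cytoplasmic actins passed: Actb was at 10184 CPM in mutant cells and 3089 CPM in control cells (log2 1.72), and Actg1 at 10855 CPM and 5220 CPM in the same order (1.06), though reads of these similar genes may be shared. Myh9, a non-muscle myosin heavy chain, was at 463 CPM in mutant cells and 108 CPM in control cells (2.09). Tpm1 (1.23) and Tpm4 (1.23) passed among 4 tropomyosins, as did the crosslinkers Actn4 (1.33) and Flna (1.39) and the focal adhesion protein Zyx (1.80).

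Subunits of the translation initiation factor eIF3 gave 4 higher (Eif3b, Eif3c, Eif3g, Eif3j1) of 13, with a median of -0.00, and ribosomal proteins 0 of 75, with a median of -0.05. Of the 11 mitochondrial genome transcripts at 100 CPM, 10 had a ratio above 0, with a median of 0.81, and mt-Co3 (1.04) and mt-Nd3 (1.32) passed.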
